A study of Mus musculus with 6 samples.

Results

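The Tafa family (Tafa1 to Tafa5, older symbols Fam19a1 to Fam19a5) was followed across the cell populations and libraries of a single-nucleus RNA-seq study of the mouse hippocampus. Its members were taken by name, 5 of the 26049 genes measured. The family was selected on its measured levels in the neuron clusters, cell types and libraries of these data, so those levels are a description and carry no test. The study used male PS19 mice, which carry human tau with the P301S mutation (labelled Tau P301S) under the mouse prion protein promoter; no library from mice without the transgene was analysed here. Mice received an adeno-associated virus (AAV) with either VEGFC, a lymphatic growth factor, or GFP as its control, and either a controlled cortical impact over the right hemisphere, a mild traumatic brain injury (TBI), or a sham operation. Nuclei from frozen, microdissected hippocampi were sequenced as 6 libraries: TBI VEGFC left, TBI VEGFC right, sham VEGFC right, TBI GFP left, TBI GFP right and sham GFP right. Each combination of injury, vector and side is thus 1 library. The number of mice behind it is not in the labels, nor is whether left and right came from the same mice. With no combination repeated, p-values rest only on the spread between these 6 libraries and on the variance of other genes. The labels give neither age nor time after injury.

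TAFA proteins are small secreted, cysteine-rich proteins distantly related to the CC chemokines and made mainly in the nervous system. TAFA1 to TAFA4 bind neurexins, presynaptic adhesion proteins, inside the cell that makes them. Cell-surface receptors have been reported for single members: GPR1 for TAFA1, formyl peptide receptor 1 and LRP1 for TAFA4, and S1PR2 and formyl peptide receptor 2 for TAFA5. In mouse sensory ganglia Tafa4 is known as a marker of low-threshold touch neurons.

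The deposited data held 28650 nuclei in 9 classes and 32 clusters, 16 of them excitatory and 7 inhibitory, with the names the authors gave them. A library held 3676 to 6002 nuclei and 15358208 to 18379148 unique molecular identifiers (UMIs), with a median of 2689 to 3703.5 UMIs per nucleus. Levels are given as CPM: the UMIs of a gene summed over the nuclei of a cluster in 1 library, per 1000000 UMIs of those nuclei, for clusters with at least 20 nuclei in that library. Means ± SD run over libraries that differ in condition. Clusters were checked against marker lists. Excitatory neuron 4 was highest for the CA3 list, with 4 of 4 markers above the cluster average and Grik4, Nectin3 and Cpne4 among its leading genes, and is called CA3-like. Excitatory neuron 1 is called CA1-like from 4 of 4 CA1 markers above average, although none of them was among its 10 leading genes, and excitatory neurons 2 and 3 are dentate-like with 6 of 6 markers each. Excitatory neuron 8 was highest for the dentate list too, also with 6 of 6, and is referred to by its number. Excitatory neuron 11 was also highest for the CA3 list and excitatory neuron 7 for the CA1 list, each with 4 of 4 markers above average. Both are referred to by number, so CA3-like and CA1-like stand for single clusters. In each nonneuronal class the class's own marker list was the highest. Between libraries 182 nuclei (0.635%) shared a barcode.

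The genes differ widely in length, which matters for nuclear RNA because much of it is unspliced. Tafa1 lies at chr6:96113154-96657198 on the plus strand (GRCm38) and spans 544 kb, of which exons make up 0.775%. Tafa2 spans 477 kb at chr10:123263996-123741204, plus strand. Tafa4 spans 229 kb at chr6:96831203-97060413, minus strand; it is the next gene after Tafa1, with 174004 bases and 0 annotated genes between their ends. Tafa5 spans 215 kb at chr15:87544299-87759364, plus strand, and Tafa3 spans 14.4 kb at chr3:104767406-104781840, minus strand. Per kilobase of gene, Tafa1 gave 145 UMIs over the whole data set, Tafa2 111, Tafa5 61.1, Tafa4 1.32 and Tafa3 0.277. On this length-adjusted scale Tafa1 and Tafa2 were the most abundant members and Tafa5 came next, while Tafa3 and Tafa4 were rare. The scale assumes that intronic reads were counted, which no source used here states. UMIs not divided by length gave the same order: 78989, 52857, 13132, 302 for Tafa4 and 4 for Tafa3. On the opposite strand Tafa1 overlaps 1700123L14Rik (61 UMIs in all) and Tafa3 overlaps Ppm1j (4 UMIs), and such reads can be told apart only where counting used strand, which no source used here states.

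The promoters of 3 members are shown because the neighbours Tafa1 and Tafa4 and the broadly detected Tafa5 differ in base composition. Each is the 250 bases before the gene's first RefSeq start (GRCm38.p6), written 5′ to 3′ on the gene's strand, with CG dinucleotides in capitals.
Tafa1: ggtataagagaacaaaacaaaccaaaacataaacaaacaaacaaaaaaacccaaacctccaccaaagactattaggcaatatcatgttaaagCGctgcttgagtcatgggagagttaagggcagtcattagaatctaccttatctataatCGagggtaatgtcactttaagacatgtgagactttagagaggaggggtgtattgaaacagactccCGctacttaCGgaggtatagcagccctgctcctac
Tafa4: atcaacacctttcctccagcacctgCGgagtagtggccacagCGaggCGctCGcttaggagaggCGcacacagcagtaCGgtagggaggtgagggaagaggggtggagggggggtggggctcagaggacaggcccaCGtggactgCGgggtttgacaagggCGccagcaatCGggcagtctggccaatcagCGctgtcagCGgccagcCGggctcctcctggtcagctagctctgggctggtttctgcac
Tafa5: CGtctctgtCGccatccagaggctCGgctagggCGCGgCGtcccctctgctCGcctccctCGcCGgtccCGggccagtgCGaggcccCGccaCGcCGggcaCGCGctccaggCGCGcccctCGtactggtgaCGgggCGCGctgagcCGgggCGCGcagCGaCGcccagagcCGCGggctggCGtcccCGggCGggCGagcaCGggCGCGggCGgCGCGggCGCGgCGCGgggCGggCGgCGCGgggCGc
These windows are chr6:96112904-96113153 for Tafa1 (plus strand), chr6:97060412-97060661 for Tafa4 (minus strand) and chr15:87544049-87544298 for Tafa5 (plus strand). The Tafa1 window held 4 CG dinucleotides, and 44.4% of the 32851 RefSeq promoters held as few or fewer in windows of the same length. The Tafa4 window held 13 CG, with 70.6% of promoters at or below it, and the Tafa5 window held 48, with 99.9% at or below it. The second Tafa5 start, at chr15:87624980-87625229, held 38 CG. The Tafa2 window held 6 CG, the median of all promoters. A CG count describes the sequence only; no methylation or binding was measured.

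Tafa1 was foremost a gene of the excitatory neurons, which held 93.0% of its 78989 UMIs. It was highest in the CA3-like excitatory neuron 4, with 2863, 3116, 2785, 2843, 2946 and 2807 CPM in the TBI VEGFC left, TBI VEGFC right, sham VEGFC right, TBI GFP left, TBI GFP right and sham GFP right libraries (mean 2893 ± 123, n = 6). The CA1-like excitatory neuron 1 followed at 1999 ± 87.0 CPM (lowest 1863, median 2005, highest 2119). No library of the CA1-like cluster reached the lowest library of the CA3-like cluster, and within a library the CA3-like value was 1.40 to 1.49 times the CA1-like value in 6 of 6. Tafa1 was detected in 96.7% of CA3-like and 98.6% of CA1-like nuclei. After each nucleus was thinned at random to 1000 UMIs, so that depth was equal, the shares were 84.7% and 80.5%. Excitatory neuron 11, also highest for the CA3 list, held 173 ± 98.2 CPM of Tafa1 (5 libraries).

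Next in the order of Tafa1 levels came excitatory neuron 7 (1146 ± 505 CPM), excitatory neuron 8 (1075 ± 119), the dentate-like excitatory neuron 2 (954 ± 58.3), excitatory neuron 13 (833 ± 465, 3 libraries) and the dentate-like excitatory neuron 3 (714 ± 23.5). Excitatory neurons 7 and 8 did not differ beyond their spread, nor did 2 and 13. Excitatory neuron 7 owed its spread to the sham GFP right library, at 2146 CPM against 736 to 1094 in the other 5 libraries. The cluster's make-up also stood apart in that library, where Dcn, its leading gene, was at 123 CPM against 218 to 293 in the others. At the low end, Tafa1 was at 3.53 ± 3.67 CPM in excitatory neuron 5 and was detected in 1.3% of its nuclei. That is below the 1.70% of choroid plexus epithelial nuclei with a Tafa1 UMI, in which median depth was 2374.5 UMIs, and was read as background. Excitatory neuron 16 held 0 Tafa1 UMIs in 41 nuclei, which allows a share of nuclei with a UMI of up to 8.6% (exact binomial interval).

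Tafa2 had another order among the same clusters. It was highest in the dentate-like excitatory neuron 3, with 1965, 1936, 1891, 1896, 2020 and 1866 CPM in the TBI VEGFC left, TBI VEGFC right, sham VEGFC right, TBI GFP left, TBI GFP right and sham GFP right libraries (mean 1929 ± 57.0, n = 6). In the CA1-like excitatory neuron 1 it was at 21.4, 20.5, 32.0, 23.0, 24.2 and 28.4 CPM in the same order of libraries (mean 24.9 ± 4.44). The 2 clusters were far from overlapping, and the ratio of their means was 77.5, ranging from 59.1 to 94.5 between libraries. Tafa2 was detected in 98.4% of nuclei of excitatory neuron 3 and 8.8% of those of excitatory neuron 1, or 81.6% and 2.4% after thinning. The CA3-like excitatory neuron 4, with the highest Tafa1 level, held 404 ± 29.4 CPM of Tafa2. Excitatory neuron 7, also highest for the CA1 list, held 445 ± 142 CPM of Tafa2.

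Below excitatory neuron 3, Tafa2 was at 1332 ± 321 CPM in excitatory neuron 14 (2 libraries), 1211 ± 84.0 in excitatory neuron 8, 1138 ± 38.2 in the dentate-like excitatory neuron 2 and 963 ± 122 in excitatory neuron 6. Excitatory neuron 3 stood above excitatory neuron 14 by more than their spread, and excitatory neuron 2 above excitatory neuron 6, while excitatory neurons 14, 8 and 2 could not be ordered. The dentate-like excitatory neurons 2 and 3 differed in 3 members: excitatory neuron 3 had 1.70 times the Tafa2 and 1.42 times the Tafa5 of excitatory neuron 2, which in turn had 1.34 times the Tafa1 of excitatory neuron 3. Each of these 3 differences had the same direction in 6 of 6 libraries, and the libraries of the 2 clusters did not overlap.

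**Figure D1:**
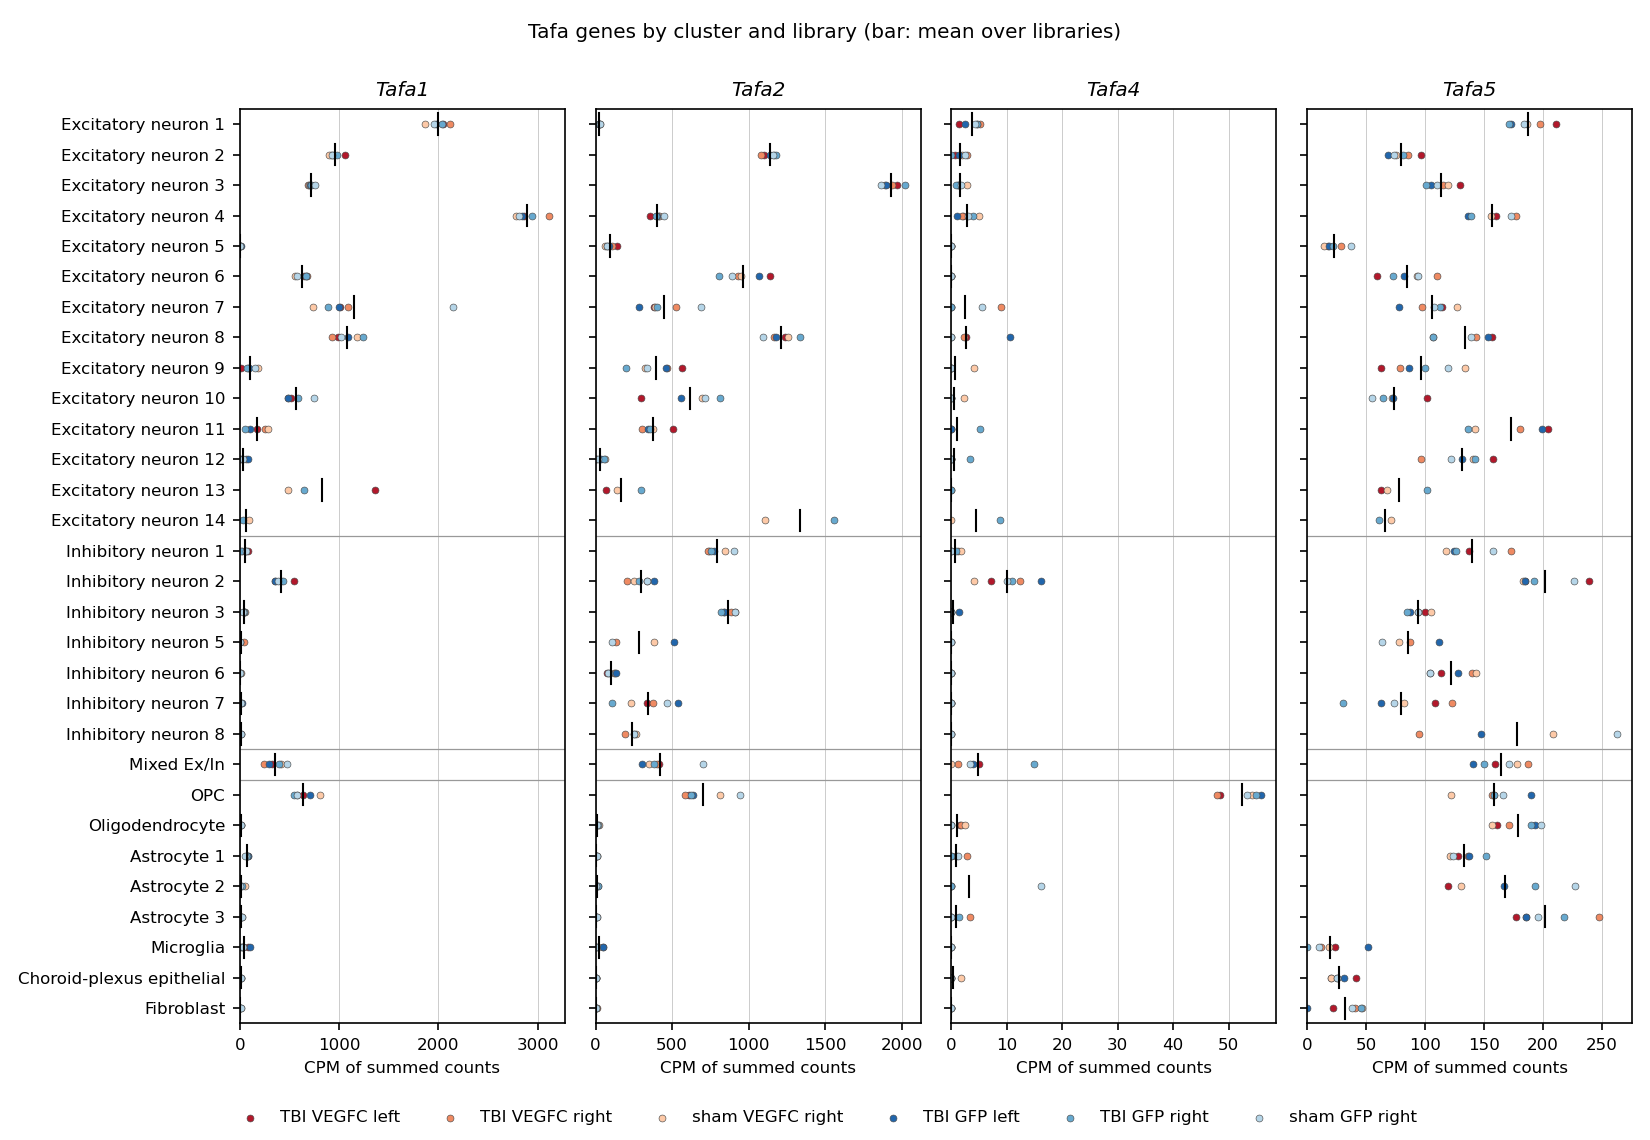
Levels of Tafa1, Tafa2, Tafa4 and Tafa5 (x axis, CPM, with a scale of its own in each panel) in clusters with at least 20 nuclei in a library; points are libraries and bars their mean. Tafa1 peaks in excitatory neuron 4 (2893 CPM), Tafa2 in excitatory neuron 3 (1929 CPM) and Tafa4 in OPC (52.4 CPM), whereas Tafa5 has no single peak.

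Within clusters, Tafa1 and Tafa2 were mostly read from the same nuclei where both were high. Both were detected in 91.1% of nuclei of excitatory neuron 8, 78.6% of excitatory neuron 2, 77.8% of excitatory neuron 3 and 77.1% of excitatory neuron 4. In excitatory neuron 1, 90.0% of nuclei had Tafa1 without Tafa2 and 0.180% had Tafa2 without Tafa1. In inhibitory neuron 3 the picture was opposite, with 58.1% of nuclei carrying Tafa2 alone and 2.77% carrying Tafa1 alone. In each of the 7 clusters counted, the share with both lay close to the product of the single shares, the widest gap being 36.9% against 34.0% in oligodendrocyte precursor cells (OPC). Over all 32 clusters, Pearson's r between the log2 levels of Tafa1 and Tafa2 was 0.601. It is a description over clusters that share libraries, and it includes clusters with fewer than 20 nuclei in a library.

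**Figure D2:**
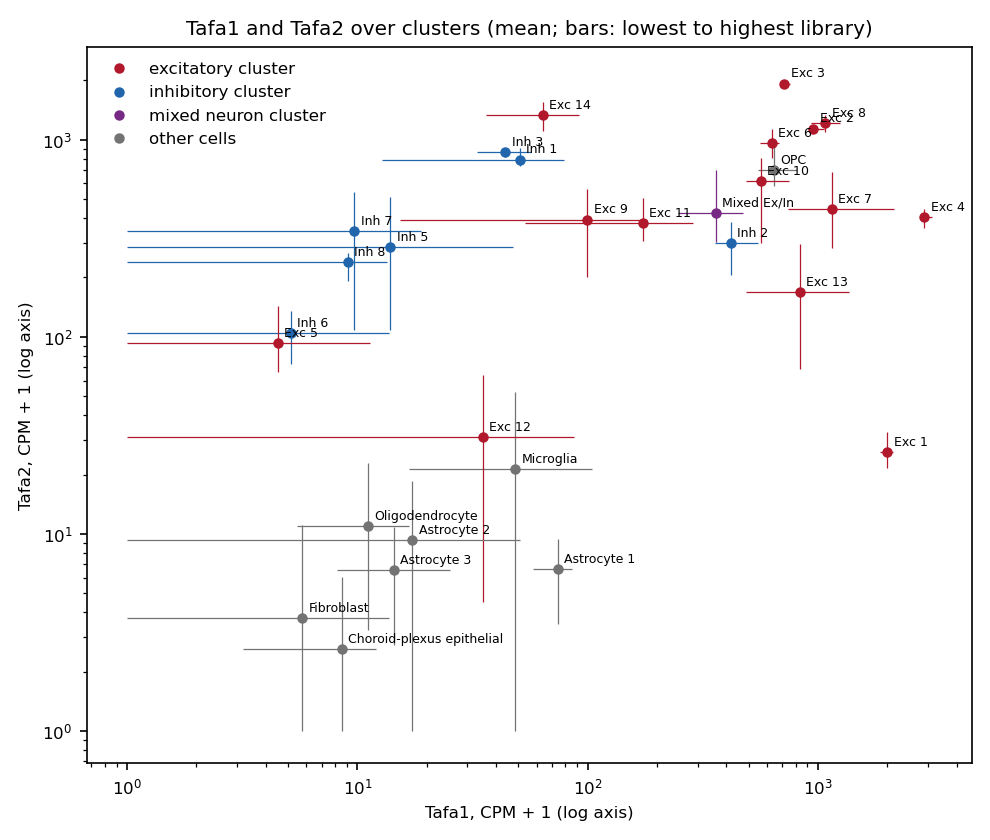
Mean Tafa1 (x axis) against mean Tafa2 (y axis) per cluster, both as CPM + 1 on log axes, with lines from the lowest to the highest library. Excitatory neuron 1 sits at high Tafa1 (1999 CPM) and low Tafa2 (24.9 CPM), inhibitory neurons 1 and 3 at low Tafa1 (49.7 and 42.9 CPM) and high Tafa2 (792 and 865 CPM), and OPC lies among the excitatory clusters.

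Inhibitory clusters spanned a wide range of both genes. Inhibitory neuron 3, led by Adarb2 and Vip, held 865 ± 40.2 CPM of Tafa2 (lowest library 816, highest 909) and inhibitory neuron 1, led by Kcnmb2 and Nxph1, held 792 ± 69.0. Inhibitory neuron 6, led by Hapln1 and Kcns3, held 103 ± 25.8, and both other clusters were above it in 6 of 6 libraries, by a ratio of means of 8.39 for inhibitory neuron 3 and 7.68 for inhibitory neuron 1. Tafa1 reached 416 ± 72.3 CPM in inhibitory neuron 2, a cluster led by Ano1, Zic1 and Prkcd, and 49.7 ± 25.7 in inhibitory neuron 1. The authors' second clustering of the neurons divided some of these levels further. Of the 2 main portions of inhibitory neuron 1, second-clustering Inhibitory 3 held 1146 CPM of Tafa2 and 15.1 CPM of Tafa1 over all libraries, and Inhibitory 2 held 458 CPM of Tafa2 and 82.2 CPM of Tafa1. Excitatory neuron 9 likewise divided into Excitatory 13, with 651 CPM of Tafa2 and 9.30 CPM of Tafa1, and Excitatory 14, with 220 CPM of Tafa2 and 164 CPM of Tafa1.

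Among nonneuronal cells, OPC had levels of both genes within the range of the excitatory clusters. Tafa1 was at 635, 572, 811, 703, 546 and 573 CPM in OPC of the TBI VEGFC left, TBI VEGFC right, sham VEGFC right, TBI GFP left, TBI GFP right and sham GFP right libraries, and at 10.4, 5.40, 12.1, 15.7, 4.49 and 12.3 CPM in oligodendrocytes. Tafa2 was at 701 ± 143 CPM in OPC and 9.95 ± 7.33 CPM in oligodendrocytes. No library's oligodendrocytes came near its OPC for either gene, and the ratio of means, OPC over oligodendrocytes, was 63.6 for Tafa1 and 70.5 for Tafa2. Tafa1 was detected in 56.1% of OPC and 1.33% of oligodendrocytes, and Tafa2 in 60.6% of OPC and 1.06% of oligodendrocytes. In OPC the summed level of excitatory neuron markers was 53.2 to 71.1 CPM. It was 1576 to 1747 CPM in excitatory neuron 9 and 489 to 595 CPM in excitatory neuron 12. These 2 clusters held little Tafa1 (98.7 and 34.1 CPM). The sum is not given here for excitatory neurons 4 and 1, which held the most Tafa1. The part of neuronal RNA in the OPC levels was not tested. Astrocyte 1 held 73.1 ± 10.5 CPM of Tafa1 and astrocyte 3, led by Gfap and Aqp4, held 13.4 ± 6.62. The ratio of their means was 5.47, with astrocyte 1 above astrocyte 3 in 6 of 6 libraries.

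Tafa4 was rare, with its highest level in OPC. Its 302 UMIs came from 265 nuclei, 0.925% of all; the 993 OPC nuclei gave 103 UMIs and the 12428 excitatory nuclei 121 (40.1%). In OPC it was at 48.4, 47.9, 54.3, 55.8, 54.9 and 53.2 CPM in the TBI VEGFC left, TBI VEGFC right, sham VEGFC right, TBI GFP left, TBI GFP right and sham GFP right libraries, from 15 to 20 UMIs each. The libraries lay close together, and their mean was 52.4 ± 3.40 CPM. Inhibitory neuron 2 followed with 10.1 ± 4.17 CPM (46 UMIs), below OPC in 6 of 6 libraries. A Tafa4 UMI was found in 8.66% of OPC nuclei, in 0.133% of oligodendrocytes (3 UMIs) and in 0.0773% of choroid plexus epithelial nuclei (1 UMI). Microglia held 0 UMIs in 406 nuclei, which allows a share of nuclei with a UMI of up to 0.904% (exact binomial interval, counting error only). Excitatory neuron 1, with 57 UMIs over its 2784 nuclei, was at 3.73 ± 1.49 CPM.

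Tafa5 had its highest levels in both neurons and glia. Its highest means were 202 ± 24.3 CPM in inhibitory neuron 2, 201 ± 26.7 in astrocyte 3, 187 ± 14.9 in excitatory neuron 1, 178 ± 17.6 in oligodendrocytes and 178 ± 72.6 in inhibitory neuron 8 (4 libraries). No neighbours among these 5 differed beyond their spread. Oligodendrocytes, which almost lacked Tafa1, Tafa2 and Tafa4, had Tafa5 in 20.2% of nuclei, and OPC had it at 159 ± 21.7 CPM. Oligodendrocytes were above OPC by 1.01 to 1.29 times within 6 of 6 libraries, although the ranges overlap. The lowest levels were in microglia (19.4 ± 17.8 CPM), excitatory neuron 5 (23.1), choroid plexus epithelium (27.3 ± 8.06) and fibroblasts (32.1 ± 18.1). Among neurons, the ratio of means of excitatory neuron 1 was 2.34 over excitatory neuron 2 and 8.10 over excitatory neuron 5, in 6 of 6 libraries each. Within astrocytes the order was the reverse of that of Tafa1: astrocyte 3 had 1.51 times the Tafa5 of astrocyte 1, in 6 of 6 libraries. Tafa3 had 4 UMIs in all, 2 in excitatory neuron 2, 1 in astrocyte 1 and 1 in microglia, and is not followed further.

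**Figure D3:**
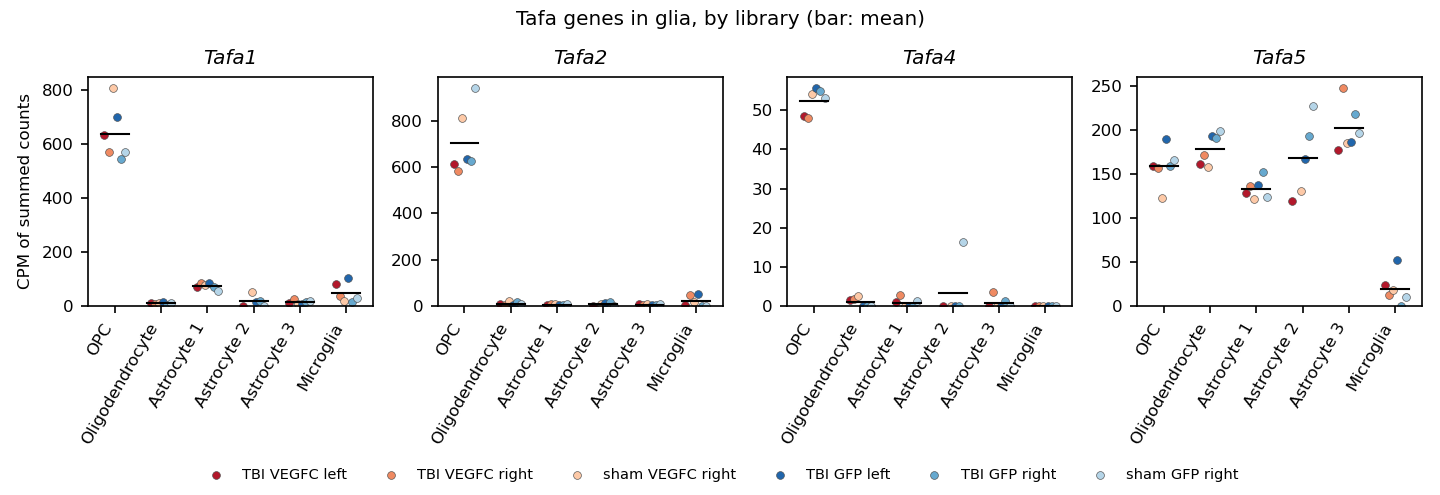
Levels (y axis, CPM, with a scale of its own in each panel) of 4 members in glial clusters; points are libraries and bars their mean. OPC stand above oligodendrocytes for Tafa1, Tafa2 and Tafa4 in every library, while Tafa5 is at 159 CPM in OPC and 178 CPM in oligodendrocytes and the 2 overlap.

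Genes with the most similar pattern were ranked by Pearson's r of log2(CPM + 1) over the 32 clusters, among 10070 genes. Unlike the levels above, this ranking also used clusters with fewer than 20 nuclei in a library, where counts are few. For Tafa1 these were Prdm8 (r = 0.757), a transcriptional regulator, Nefl (0.751), the neurofilament light chain, and Gpr22 (0.741), an orphan receptor. For Tafa2 they were Shisa9 (0.863), an AMPA receptor auxiliary protein, Kcnd3 (0.858), a Kv4 potassium channel, and Lrrc40 (0.857). For Tafa4 they were Neu4 (0.740), a sialidase, Epn2 (0.705), an endocytic adaptor, and Ccnd1 (0.668), cyclin D1, all 3 highest in OPC. For Tafa5 they were Rragb (0.841), a GTPase of nutrient signalling, Nxpe3 (0.823) and Serpine3 (0.822).

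The reported partners of TAFA proteins were unevenly detected. The neurexin gene Nrxn3 was highest in inhibitory neuron 3 (11860 CPM over all libraries) and Nrxn2 in OPC (550 CPM). Of the receptor genes, Lrp1 was highest in microglia (376 CPM), with OPC next (366 CPM). S1pr2 peaked in OPC at 21.9 CPM and had 146 UMIs in all. Gpr1, with 313 UMIs, peaked in inhibitory neuron 2 at 9.89 CPM, the inhibitory cluster with the most Tafa1. Fpr1 and Fpr2 had 116 and 15 UMIs over all nuclei.

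Members were compared between conditions with edgeR's quasi-likelihood test on summed UMIs in 24 populations, the 9 classes and 15 neuron clusters, adjusted by Benjamini-Hochberg over all genes of a population. A member passed the filter on low counts in 64 tests per comparison: 17 for Tafa1, 20 for Tafa2, 5 for Tafa4, 22 for Tafa5 and 0 for Tafa3. Passing does not make these tests independent, since the excitatory and inhibitory classes contain the clusters. The family was also chosen with its levels in these libraries known, so the p-values describe these libraries and give no independent evidence. The 56 tests in populations that share no nuclei serve for the counts of direction below.

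For VEGFC against GFP no member was called in any population. None of 64 tests passed an adjusted p of 0.05 by edgeR, where 0.0241% of all tests did, and none by DESeq2; 6 of the 64 had an unadjusted p under 0.05, as did 5.37% of the tests over all genes. Of the 56 separate tests, 30 were higher and 26 lower with VEGFC, with a median log2 fold of 0.02, and 51 lay within 0.5 of zero. Tafa5 in the excitatory class was at 139, 139 and 126 CPM in the TBI left, TBI right and sham right libraries given VEGFC and 116, 113 and 125 CPM in those given GFP. All 3 VEGFC libraries were above all 3 GFP libraries, the highest GFP library being just under the lowest VEGFC one, and the log2 fold was 0.22 (SE 0.0823, edgeR adjusted p = 0.739). The direction was the same in 3 of 3 pairs in excitatory neurons 1, 2 and 3, which are part of that class. Their log2 folds were 0.20, 0.24 and 0.23, with edgeR adjusted p of 0.826, 0.888 and 0.663. Over its 20 separate tests, Tafa5 was higher with VEGFC in 13 and lower in 7. It was higher in 0 of 3 pairs in oligodendrocytes (log2 fold -0.22, edgeR adjusted p = 0.891) and in OPC (-0.21, 0.938). Tafa2 in inhibitory neuron 2 was lower with VEGFC in 3 of 3 pairs, at a mean of 264 CPM against 334 CPM with GFP (log2 fold -0.36, SE 0.133, edgeR adjusted p = 1.00). In the clusters with the highest levels the folds were close to zero: 0.06 (SE 0.0837) for Tafa1 in excitatory neuron 4, 0.02 (SE 0.0586) for Tafa2 in excitatory neuron 3 and -0.10 (SE 0.276) for Tafa4 in OPC. With 1 library left out, log2 folds moved far in excitatory neurons 12 and 9. Without sham GFP right they were -3.65 for Tafa1 and -3.22 for Tafa2 in excitatory neuron 12. Without sham VEGFC right, Tafa1 was at -3.65 in excitatory neuron 12 and -1.29 in excitatory neuron 9. Such fits leave 1 context of injury and side with 1 library, so their calls are not counted.

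Injury and side brought 1 called member each, and it was the same one, Tafa1 in inhibitory neuron 1. In that cluster Tafa1 was at 24.6 CPM in TBI VEGFC right and 11.8 CPM in TBI GFP right, against 63.5 CPM in sham VEGFC right and 63.4 CPM in sham GFP right. The left hemispheres of injured mice held 78.3 CPM in TBI VEGFC left and 56.4 CPM in TBI GFP left. Both right-side libraries after TBI were thus below all 4 other libraries, with no overlap. Tafa1 fell by 1.81 on the log2 scale in TBI right against sham right (SE 0.278, edgeR adjusted p = 0.000506) and was 1.90 higher on the same scale in TBI left than in TBI right (SE 0.274, edgeR adjusted p = 0.000252). The comparisons share the 2 TBI right libraries, so the second is no independent support for the first. Both p-values come from levels that were known when the family was chosen, and they are to be read with that limit. In the injury comparison 0.0594% of all tests over the 24 populations were called, and in the side comparison 0.0435%; in inhibitory neuron 1 itself 0.0181% of 11044 genes were called lower after injury, 2 genes with Tafa1 among them, and 0.00905% were called higher on the left, which is Tafa1 alone.

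**Figure D4:**
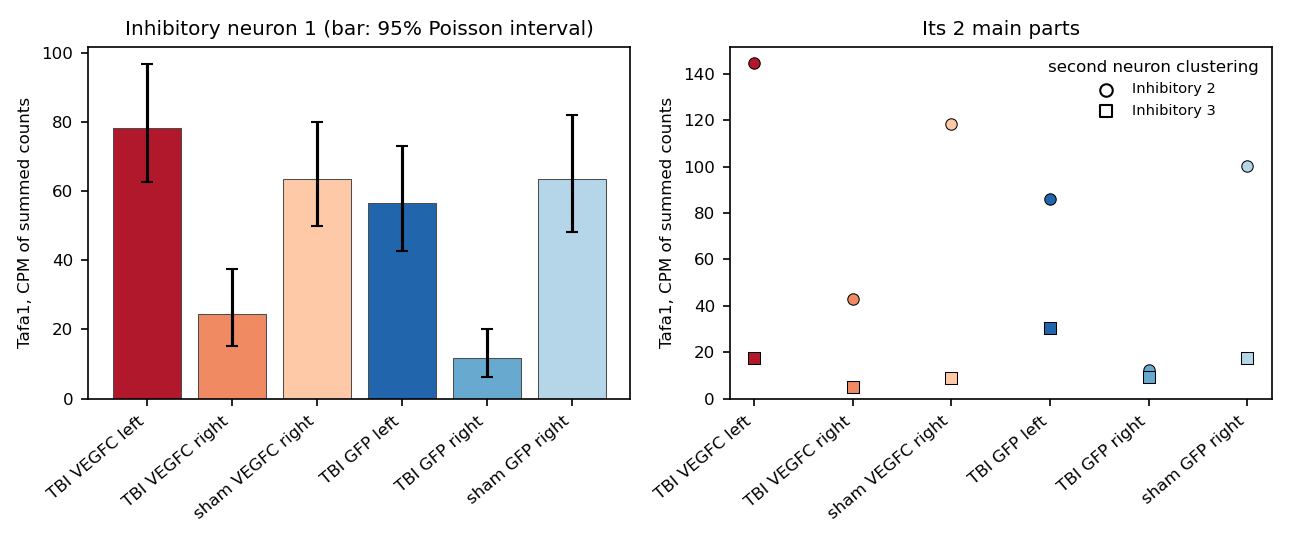
Tafa1 in inhibitory neuron 1 by library (y axes, CPM): left, the whole cluster with exact 95% Poisson intervals, which cover counting error only; right, its portions Inhibitory 2 (circles) and Inhibitory 3 (squares) of the second clustering. The whole cluster is at 24.6 and 11.8 CPM in the TBI right libraries and at 56.4 to 78.3 CPM in the other 4.

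These levels rest on few nuclei. Tafa1 UMIs came from 23 of 174 nuclei in TBI VEGFC left, 7 of 167 in TBI VEGFC right, 22 of 293 in sham VEGFC right, 22 of 226 in TBI GFP left, 7 of 221 in TBI GFP right and 13 of 180 in sham GFP right. The shares with a UMI were thus 4.19% and 3.17% in the TBI right libraries and 7.22% to 13.2% in the others. One nucleus gave 23 of the 58 Tafa1 UMIs of sham GFP right. With the nucleus richest in Tafa1 left out of each library, a setting added after the data were seen, the log2 fold was -1.96 for injury (edgeR adjusted p = 0.000815) and 2.18 for side (6.81e-05). Most of the UMIs lay in the Inhibitory 2 portion, which held 42.9 and 12.3 CPM in TBI VEGFC right and TBI GFP right, against 118 CPM in sham VEGFC right and 100 CPM in sham GFP right. Within that portion alone, also added after the data were seen, the log2 folds were -2.06 for injury and 2.13 for side, with edgeR adjusted p of 0.0762 and 0.0549.

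The call depended on the test. It held with limma-voom (adjusted p of 0.00493 for injury and 0.00124 for side), with both other scalings and without the filter on low counts. DESeq2 gave nearly the same folds, -1.84 for injury and 1.90 for side, with adjusted p of 0.448 and 0.496. Among nuclei with a doublet score of at most 0.05, 844 of 1261, the folds were -1.81 and 2.17 with adjusted p of 0.999 and 0.704. With each library left out in turn the injury fold ranged from -2.27 to -1.43. Calls from these fits are not counted, because each leaves a context of injury and side without a repeat. The Inhibitory 2 portion made up 50.3% and 59.7% of the cluster in the TBI right libraries and 46.5% to 55.6% in the other 4. Nuclei with Tafa1 (94) held 528 CPM of Sst and 130 CPM of Reln, against 316 and 281 CPM in those without (1167). Pvalb, like Reln, was lower in nuclei with Tafa1, at 11.05 CPM against 43.61 CPM in those without. Sst was at 295 and 383 CPM in TBI VEGFC right and TBI GFP right, and at 284 to 354 CPM in the other libraries. Reln was at 287 and 328 CPM in TBI VEGFC right and TBI GFP right, above its 221 to 282 CPM in the other 4 libraries, and so moved with the Tafa1 difference in the opposite direction. Pvalb did not move in this way. It was at 28.08 and 39.98 CPM in TBI VEGFC right and TBI GFP right, within its 27.31 to 49.73 CPM in the other 4. Excitatory neuron markers summed to 256 and 262 CPM in the TBI right libraries and to 250 to 288 CPM in the other 4. The part of these measures in the result was not tested.

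Tafa1 in the other inhibitory populations was not called: the injury log2 fold was 0.04 (SE 0.175) in inhibitory neuron 2, 0.00 (SE 0.306) in inhibitory neuron 3 and -0.38 (SE 0.221) in the inhibitory class as a whole. Whether these folds differ from that of inhibitory neuron 1 was not tested. In inhibitory neuron 1 itself, Tafa2 was at 732 and 753 CPM in TBI VEGFC right and TBI GFP right, and 844 and 906 CPM in sham VEGFC right and sham GFP right (log2 fold -0.21, SE 0.103, edgeR adjusted p = 0.995). Tafa5 was at 173 and 126 CPM in the same TBI libraries and at 117 and 157 CPM in the sham libraries, which overlap.

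**Figure D5:**
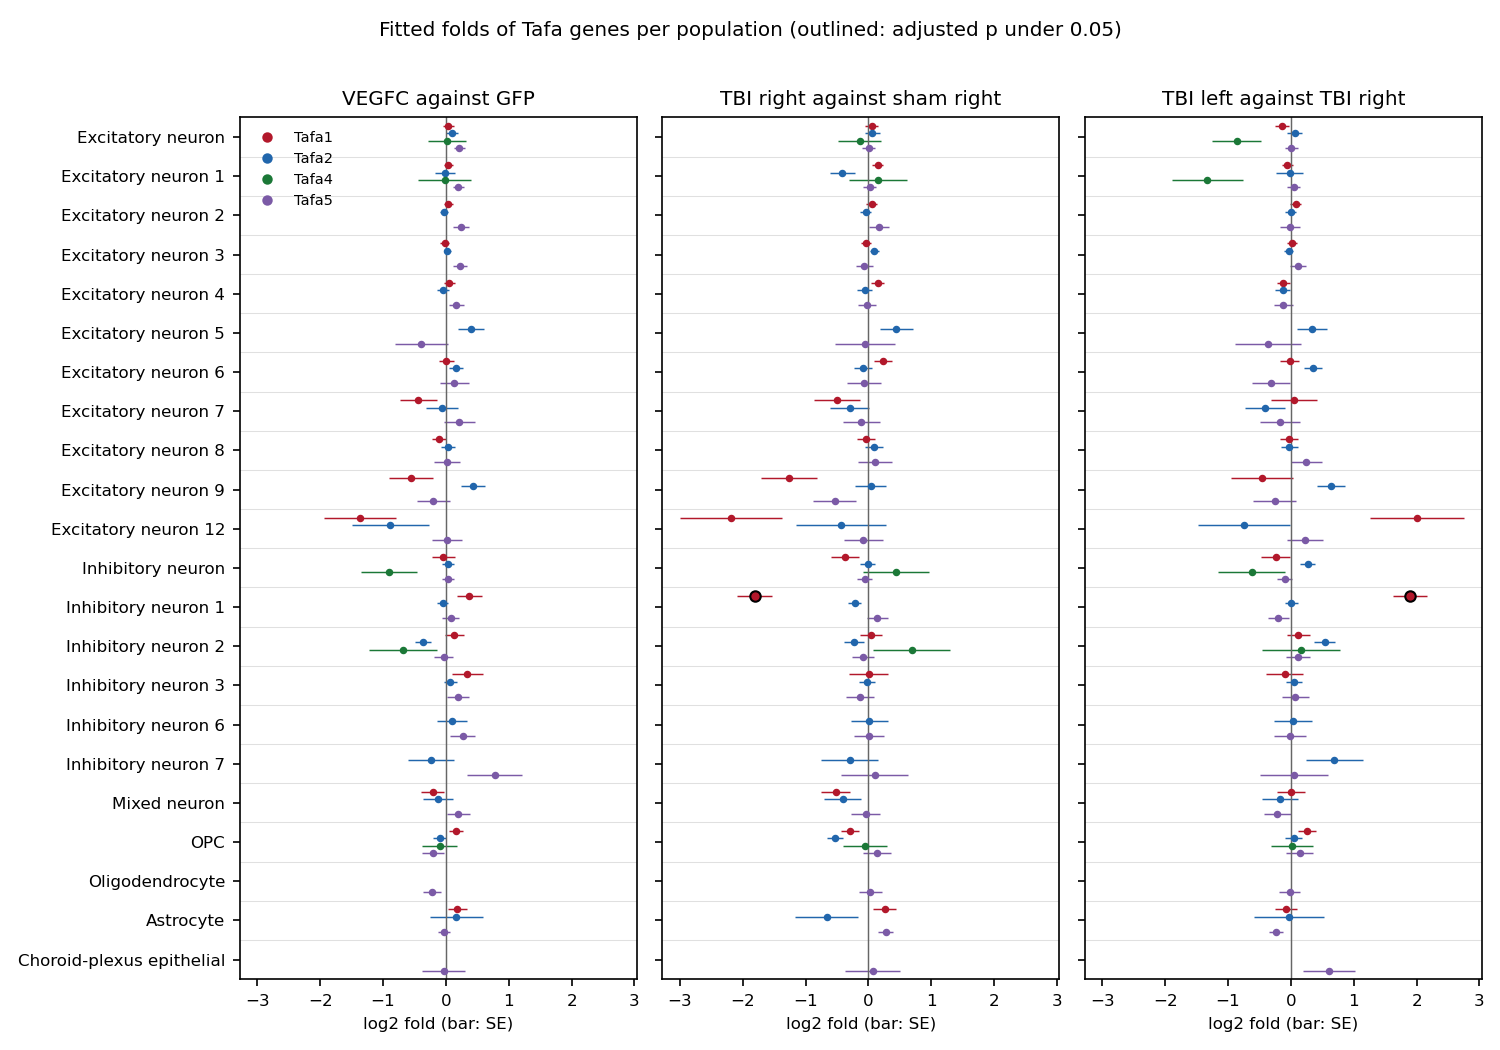
Fitted log2 folds (x axes) with standard errors for each member in the populations where it passed the filter on low counts (y axis), for vector (VEGFC against GFP), injury (TBI against sham, right side) and side (left against right after TBI). Outlined points passed an adjusted p of 0.05: Tafa1 in inhibitory neuron 1, at -1.81 for injury and 1.90 for side; most others lie within 0.5 of zero.

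In the remaining tests of TBI right against sham right no member was called. Over the 56 separate tests, 24 were higher and 32 lower after injury, with a median of -0.04, and 47 lay within 0.5 of zero; 8 of all 64 tests had an unadjusted p under 0.05, as did 4.98% of the tests over all genes. Tafa2 in OPC was next in p, at 584 and 624 CPM in TBI VEGFC right and TBI GFP right against 811 and 942 CPM in sham VEGFC right and sham GFP right. Both injured libraries were lower than both sham libraries, but with a log2 fold of -0.52 (SE 0.127) the test gave an unadjusted p of 0.00029 and an edgeR adjusted p of 0.278. Tafa1 in OPC was at 572 and 546 CPM in those TBI libraries and at 811 and 573 CPM in the sham ones, all but touching at 572 and 573 (log2 fold -0.29, SE 0.146, edgeR adjusted p = 0.884). Tafa5 in the astrocyte class was at 176 and 177 CPM in TBI VEGFC right and TBI GFP right and at 145 and 153 CPM in sham VEGFC right and sham GFP right, with no overlap (log2 fold 0.28, SE 0.117, edgeR adjusted p = 0.593). Excitatory neuron 12 gave the largest fold that was not called, -2.18 for Tafa1 (SE 0.808, edgeR adjusted p = 0.999), from 0 to 12 UMIs in each of these 4 libraries. Leaving out 1 library moved some log2 folds away from zero. Without sham GFP right, Tafa1 was at -5.22 in excitatory neuron 12 and -2.02 in excitatory neuron 9. Without sham VEGFC right, excitatory neuron 7 had -1.30 for Tafa1 and -0.88 for Tafa2, and mixed neurons had -1.06 for Tafa2. Calls from these fits are not counted.

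For TBI left against TBI right, 28 separate tests were higher and 28 lower on the left, 48 lay within 0.5 of zero, and 9 of all 64 had an unadjusted p under 0.05, as did 3.78% of all tests. Tafa2 in inhibitory neuron 2 was at 338 and 383 CPM in TBI VEGFC left and TBI GFP left, against 205 and 285 CPM in TBI VEGFC right and TBI GFP right (log2 fold 0.54, SE 0.168, edgeR adjusted p = 1.00). Both left libraries lay above both right ones. Tafa2 in excitatory neuron 9 was at 563 and 462 CPM on the left against 467 and 200 CPM on the right, which overlap (log2 fold 0.64, SE 0.223, edgeR adjusted p = 0.223). Tafa5 in the astrocyte class was at 145 and 154 CPM on the left against 176 and 177 CPM on the right (log2 fold -0.24, SE 0.116, edgeR adjusted p = 1.00). Tafa4 in OPC was at 48.4 and 55.8 CPM on the left and 47.9 and 54.9 CPM on the right (log2 fold 0.01, SE 0.336). Tafa1 in excitatory neuron 12 was at 7.0 and 86.5 CPM on the left and 0 and 19.8 CPM on the right (log2 fold 2.00, SE 0.748, edgeR adjusted p = 1.00), and 27 of 27 UMIs in TBI GFP left came from 1 nucleus. With 1 library left out, the Tafa2 log2 fold in excitatory neuron 9 was 0.65 without sham GFP right and 0.66 without sham VEGFC right. Without TBI GFP left, the Tafa1 log2 fold there was -2.40. Calls from these fits are not counted.

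In the related gene lists no gene was called. Of the 8 reported partners of TAFA proteins, 5 were measured well enough to test, in 96 tests per comparison, and 0 were called in each of the 3 comparisons, with 8, 7 and 5 unadjusted p under 0.05 for vector, injury and side by edgeR. Of 16 brain chemokine and chemokine receptor genes, 12 were tested in 100 tests per comparison. Again 0 were called, with 7, 5 and 5 unadjusted p under 0.05. Over all genes, 0.0241%, 0.0594% and 0.0435% of tests were called by edgeR for vector, injury and side. An unadjusted p under 0.05 came in 5.37%, 4.98% and 3.78% of them. At so low a share of calls, 0 in 96 or 100 tests says little about these lists. The smallest edgeR adjusted p among the chemokine genes was 0.199, for Cx3cr1, the fractalkine receptor, in astrocytes after injury (log2 fold -0.82). Cx3cr1 was highest in microglia (1343 CPM over all libraries), and the part of microglial RNA in the astrocyte value was not tested.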

How the data were processed

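UMI counts per gene and nucleus, with class and cluster names, total counts, percent of mitochondrial counts and a doublet score per nucleus, were used as deposited by the authors; libraries were made with a 10x Genomics 3′ v3.1 kit per the labels' protocols. The submitters' processing notes name Cell Ranger 7.0.1, Scanpy and mm10; no source used here states whether intronic reads were counted. The deposited percent values were all under 1 and the authors' deposited scores at most 0.099, so nuclei had already been filtered. Members and gene lists were chosen with earlier results of these data known.

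From these, counts were summed per library and class or cluster, units needing at least 20 nuclei in a library, and turned into CPM. Conditions were tested with edgeR 4.0.16 (R 4.3.3; quasi-likelihood, TMM, filterByExpr) with terms for vector and for 3 contexts of injury and side, which leaves 2 residual degrees of freedom and assumes that the vector effect is equal in each context. The edgeR p-values also draw on the variance of the other genes, weighted in inhibitory neuron 1 as 38.4 prior degrees of freedom (median). DESeq2 1.42.0, limma-voom 3.58.1, other scalings, no filter, a doublet score of at most 0.05 and leaving out each library were alternatives. The test was checked on simulated data with 200 changed genes. Shares of nuclei were also taken after thinning each nucleus to 1000 UMIs, and intervals are exact 95% ones for counting error only. Named genes are the members, the 3 genes most similar to each member, and the listed partners and chemokines; 1 partner gene is not reported here by itself. Loci are from GENCODE vM21 and promoters from RefSeq, which matched 5 of 5 members by symbol. CPM is relative to all UMIs of a population, so a level can also move with other genes.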

Additional observations from a re-analysis of the deposited data

How the results depend on the processing

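Counts of called members depended on the test and on the nuclei kept. For injury and for side, DESeq2 and the restriction to doublet scores of at most 0.05 gave 0 calls each, against 1; that restriction kept 18659 nuclei (65.1%) and could be fitted in 16 of 24 populations. The cause was not tested. Fits without 1 library leave a context of injury and side with 1 library and fewer residual degrees of freedom. Their calls are therefore not counted, and only their folds are given. Levels were higher under the doublet restriction, at 3182 CPM for Tafa1 in excitatory neuron 4 (2893 otherwise), 2075 for Tafa2 in excitatory neuron 3 (1929) and 58.1 for Tafa4 in OPC (52.4). With 1 library left out, their means ranged over 2849 to 2915, 1911 to 1942 and 51.8 to 53.3 CPM. The mean of Tafa5 in its highest cluster ranged over 194 to 205 CPM. Alternatives for single genes covered Tafa1, Tafa2, Tafa4 and Tafa5 in each comparison, each only in its population with the smallest edgeR p. Directions in the other tests were not tallied over the alternatives. Only fits without 1 library became called, for Tafa1 in excitatory neuron 12, and they are not counted as calls. Of the alternatives for single genes, 136 kept the direction and side of the threshold, 2 became called and 6 lost the call; 0 reversed direction. No paired analysis was possible because the labels number the 6 libraries 1 to 6 and no groups share a number to block on; the vector was compared within the 3 contexts of injury and side. Depth limits Tafa4, at 15 to 20 UMIs per library in OPC, and left Tafa3 untested.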
